A study of Mus musculus with 4 samples.

Results

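Krt1, Krt10, Krt77 and Krt2 are keratins of the suprabasal interfollicular epidermis, the layers above the proliferating basal cells. Their transcripts were followed in whole embryonic skin in which beta-catenin was made stable in the epithelium. The members were taken as every probe set that the array platform names Krt1, Krt10, Krt77 or Krt2, which gave 4 of 18193 named genes and 4 probe sets, 1 per gene, of 45037 on the array. Of these, 3 passed the filter on dim probe sets and were tested, and Krt2 did not pass.

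Keratins form filaments as pairs of an acidic type I and a basic type II protein. Basal keratinocytes make the pair Krt5 and Krt14, and a cell that leaves the basal layer turns to Krt1 (type II) and Krt10 (type I), the commonest marks of epidermal commitment. Krt77 is a further type II keratin of suprabasal mouse keratinocytes, and Krt2 is a type II keratin of the upper layers that appears late. Hair follicles use other keratins, encoded in the same gene clusters.

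The study compared 2 mutant embryos with 2 control littermates at embryonic stage E14.5, 1 array per sample. Mutants were KRT14-Cre Ctnnb1(Ex3)fl/+, with a Cre recombinase under a keratin promoter of basal keratinocytes and 1 allele of Ctnnb1, the beta-catenin gene, whose exon 3 Cre can remove. The control genotype is not given in the sources used here beyond littermate status, and neither is the extent of recombination. RNA came from dissected skin with epidermis and dermis together, so fewer suprabasal cells and less keratin RNA per cell cannot be told apart. Array medians lay between 27.7 and 32.0 signal units. Ctnnb1 read 6197 and 5773 in mutants, against 6302 and 5335 in controls (log2 fold change 0.04, SE 0.12, limma adjusted p = 0.874), and the files do not place its probe set inside or outside the exon that Cre removes. With 2 against 2 arrays, an exact two-sided permutation test cannot give a p under 0.333, so calls rest on limma, which pools the spread of all tested probe sets. A probe set was called at a Benjamini-Hochberg adjusted p of 0.05 over all tested probe sets. Fold changes are on the scale log2(signal + 7.71), mutant minus control, which shrinks the change of dim probe sets.

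Krt1, Krt10 and Krt77 were all far lower in mutant skin, and Krt2 was not measurable in either group. Krt1, which pairs with Krt10 in the first suprabasal filaments, had signals of 29.9 and 53.0 in mutants, against 1867 and 2504 in controls. Mutant replicate 1 thus lay just under its array median of 32.0 and replicate 2 above its median of 30.4, and the lower control was 35.2 times the higher mutant. The log2 fold change was -5.50 (SE 0.25, 95% interval -6.10 to -4.91, limma adjusted p = 0.000149), with a mutant mean of 41.5 ± 16.3 and a control mean of 2185 ± 451 (SD, n = 2 each). In linear signal the mutants averaged 1.90% of the control mean.

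Krt10, the type I partner of Krt1, fell less in proportion. It read 181 and 230 in mutants, against 4163 and 5636 in controls. The mutants stayed above their array medians, and the groups were 18.1 times apart at their nearest arrays. The log2 fold change was -4.52 (SE 0.18, 95% interval -4.94 to -4.09, limma adjusted p = 0.000104), and the mutant mean of 206 ± 34.5 was 4.20% of the control mean of 4899 ± 1041 (SD, n = 2 each).

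Krt77 read 15.6 and 31.0 in mutants, against 840 and 1688 in controls. Mutant replicate 1 was under its array median and the other mutant close to it, so this gene passed the filter only through its control signals. The log2 fold change was -5.32 (SE 0.36, 95% interval -6.18 to -4.45, limma adjusted p = 0.000764). The mutant mean was 23.3 ± 10.9, or 1.84% of the control mean of 1264 ± 599 (SD, n = 2 each). The controls differed more from each other in Krt77 than in the other tested members. Control replicate 2 read 2.01 times replicate 1 in Krt77, against 1.34 times in Krt1 and 1.35 times in Krt10.

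Krt2 read 5.30 and 0.139 in mutants, against 0.873 and 3.56 in controls. All 4 values lay under the offset of 7.71, the groups overlapped, and no fold is given. These arrays do not show whether Krt2 differed.

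**Figure D1:**
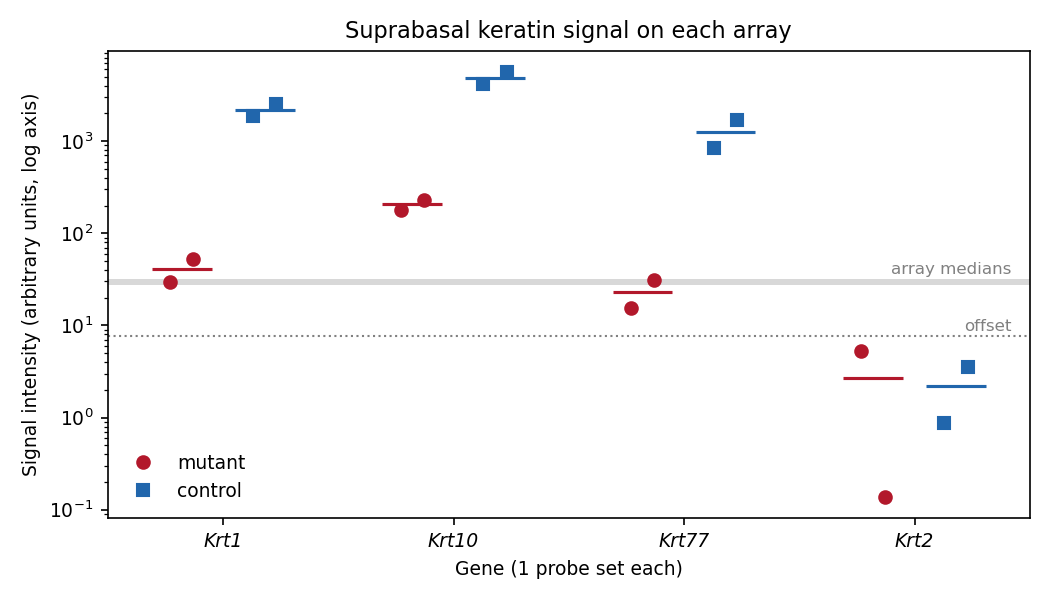
Signal intensity (arbitrary units, log axis) of the 4 suprabasal keratins on each array, mutants as circles and controls as squares, with horizontal lines at the group means (n = 2). The 3 measurable genes read 15.6 to 230 in mutants and 840 to 5636 in controls, and every Krt2 value lies under the dotted line at the offset of 7.71; the grey band spans the 4 array medians.

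The 3 tested members were called lower, as were 2.93% of the 22519 tested probe sets. Among all tested probe sets, Krt1 had rank 1, Krt77 rank 2 and Krt10 rank 3 when ordered from the lowest log2 fold change. These ranks depend on the offset, and with an offset of 1 they were 1 for Krt1, 3 for Krt77 and 12 for Krt10. Both mutants lay under both controls for each of the 3, as for 27.7% of all tested probe sets. With each array left out in turn, the log2 fold change ran from -5.85 to -5.16 for Krt1, from -4.74 to -4.30 for Krt10 and from -5.82 to -4.81 for Krt77, and all 3 stayed called. The test named in the authors' file header, with unequal variances and no correction, gave p = 0.0108 for Krt1, p = 0.00490 for Krt10 and p = 0.0173 for Krt77 on these values, a two-sided test that is not exact and here has 2 arrays per group; Krt1 and Krt77 thus missed its threshold of 0.01. None of the 4 probe sets is among the 170 of the authors' deposited table as used here. The folds in that table are GCRMA-based and so on another scale than the signals tested here. Why the members, Krt10 included, are absent from it was not tested. That table holds 49 probe sets with a fold under 1, of which 0 name a keratin, and 121 with a fold over 1, of which 10 name a keratin.

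The changes were not equal in size on this scale. The log2 difference between Krt1 and Krt10 was -2.33 and -1.97 in mutants, against -1.15 and -1.17 in controls, so that the change of Krt1 exceeded that of Krt10 by -0.99 and the groups did not overlap. The difference between Krt77 and Krt10 was -3.02 and -2.62 in mutants, against -2.30 and -1.73 in controls, and the groups again did not overlap. Between Krt77 and Krt1 they overlapped, with -0.69 and -0.65 in mutants, against -1.14 and -0.57 in controls. Only the change of these differences between groups can be read, not their level. The extra change of Krt1 over Krt10 depends on the offset added to dim mutant signals: it was -1.16 with an offset of 1 and -0.57 with an offset of 30.4. That of Krt77 over Krt10 was -0.80, and -1.13 and -0.15 with these offsets. None of these differences was tested, and how often such differences separate the groups in other gene pairs was not counted.

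The basal pair Krt5 and Krt14 had far smaller fold changes, which did not pass the test, whereas a further basal keratin, Krt15, was called lower (log2 fold change -2.67). Krt5 read 1256 and 1702 in mutants, against 1909 and 2844 in controls (log2 fold change -0.67, SE 0.22, limma adjusted p = 0.131). Krt14 read 934 and 1446 in mutants, against 1841 and 2528 in controls (log2 fold change -0.89, SE 0.23, limma adjusted p = 0.0753). The probe sets of the poly-A spike controls had mean log2 signals of 6.76 and 6.73 in mutants, against 8.17 and 7.64 in controls. Whether such spikes were added to the RNA in equal amounts is not given in the sources used here. Scaling the arrays to them moved the median of all tested probe sets up by 1.10. The log2 fold changes then became 0.48 for Krt5 and 0.26 for Krt14, while Krt1 was still at -4.44, Krt10 at -3.38 and Krt77 at -4.31. In each group replicate 2 was the higher array for both genes, as it was for Krt1, Krt10 and Krt77.

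Each member was therefore also set against the mean of Krt5 and Krt14 on the same array, a difference that no scaling of whole arrays changes apart from the offset. For Krt1 this log2 difference was -4.86 and -4.70 in mutants, against -0.01 and -0.10 in controls. The SD among replicates became 0.11 for mutants and 0.07 for controls, where the log2 values of Krt1 alone had SDs of 0.49 and 0.30 (n = 2 each). For Krt10 the difference was -2.53 and -2.73 in mutants, against 1.15 and 1.07 in controls. For Krt77 it was -5.55 and -5.35 in mutants, against -1.15 and -0.67 in controls. Relative to Krt5 and Krt14 the mutant mean minus the control mean was thus -4.73 for Krt1, -3.74 for Krt10 and -4.54 for Krt77 on the log2 scale, and in none did the groups overlap. Krt15 was not part of this comparison. These are descriptions, since 2 against 2 values cannot pass a permutation test. All of them share the same subtracted mean, and how often such differences separate the groups in other genes was not counted. Of single tested probe sets, 27.7% had both mutants under both controls.

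**Figure D2:**
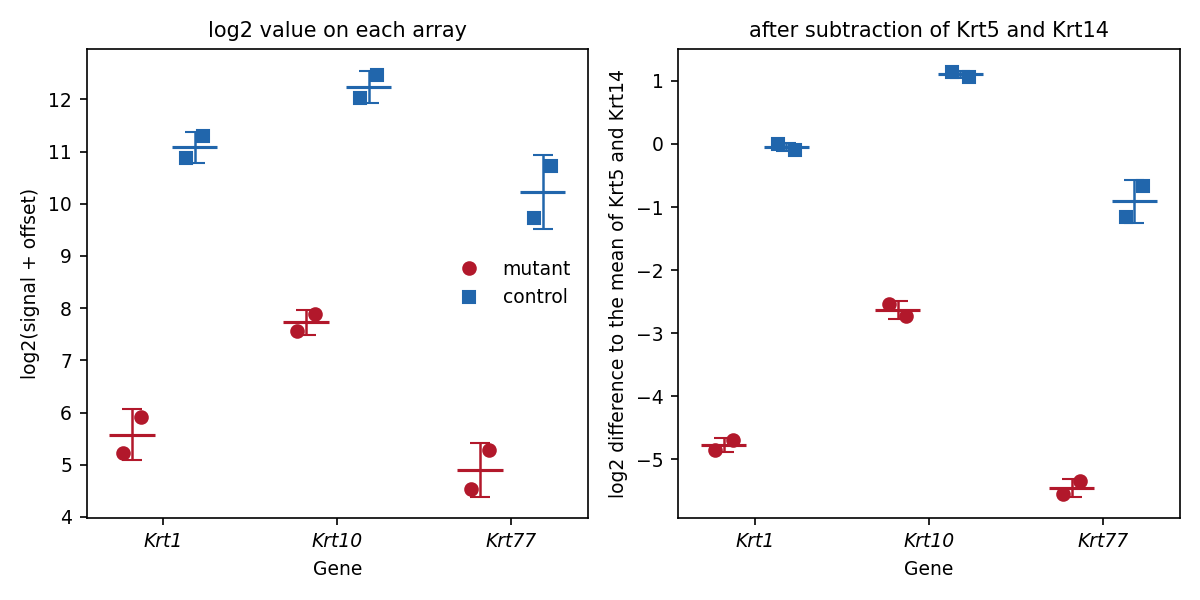
Left, log2(signal + offset) of Krt1, Krt10 and Krt77 on each array; right, the same after subtraction of the mean of Krt5 and Krt14 on that array. Circles are mutants and squares controls, with the mean and SD (n = 2) as lines; after subtraction the group means differ by -4.73 for Krt1, -3.74 for Krt10 and -4.54 for Krt77, and the replicates of each gene lie closer together.

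The members sit among keratin genes of which several were called higher. In the order of the RefSeq gene table (mouse assembly GRCm38.p6, used for gene order only), Krt10 lies in the type I cluster of chromosome 11 with Krt28, Krt27, Krt26 and Krt25, keratins of the inner root sheath of the hair follicle, on one side, and Krt12, a corneal keratin, on the other. Krt28, the next keratin gene, read 107 and 128 in mutants, against 1.66 and 1.36 in controls, at least 15.2-fold higher since both controls were under the offset (limma adjusted p = 0.00055). Krt27 read 176 and 168 in mutants, against 10.7 and 9.97 in controls (log2 fold change 3.31, SE 0.19, limma adjusted p = 0.000368). Krt25 was at least 37.3-fold higher in mutants, with a mean of 288 ± 90.4 (SD, n = 2) there and both controls under the offset. Krt26 read 30.6 and 36.2 in mutants, against 0.747 and 2.61 in controls, and its mean was under the filter. Krt12 was dim in both groups, with 3.5 and 4.11 in mutants against 17.7 and 7.0 in controls.

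On chromosome 15 the order is Krt72, Krt73, Krt2, Krt1, Krt77, Krt76 and Krt4. Krt73, a type II keratin of the inner root sheath, read 716 and 881 in mutants, against 18.9 and 6.55 in controls (log2 fold change 5.36, SE 0.30, limma adjusted p = 0.000335). Krt72 read 86.2 and 82.2 in mutants, against 12.4 and 16.7 in controls (log2 fold change 2.05, SE 0.22, limma adjusted p = 0.00352). Between these and the pair Krt1 and Krt77 lies Krt2, dim on all arrays. On the far side Krt76, an oral keratin, was dim, with 2.50 and 2.48 in mutants against 9.90 and 2.58 in controls, and Krt4, a keratin of mucosal epithelia, read 161 and 388 in mutants, against 352 and 553 in controls (log2 fold change -0.80, limma adjusted p = 0.290).

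**Figure D3:**
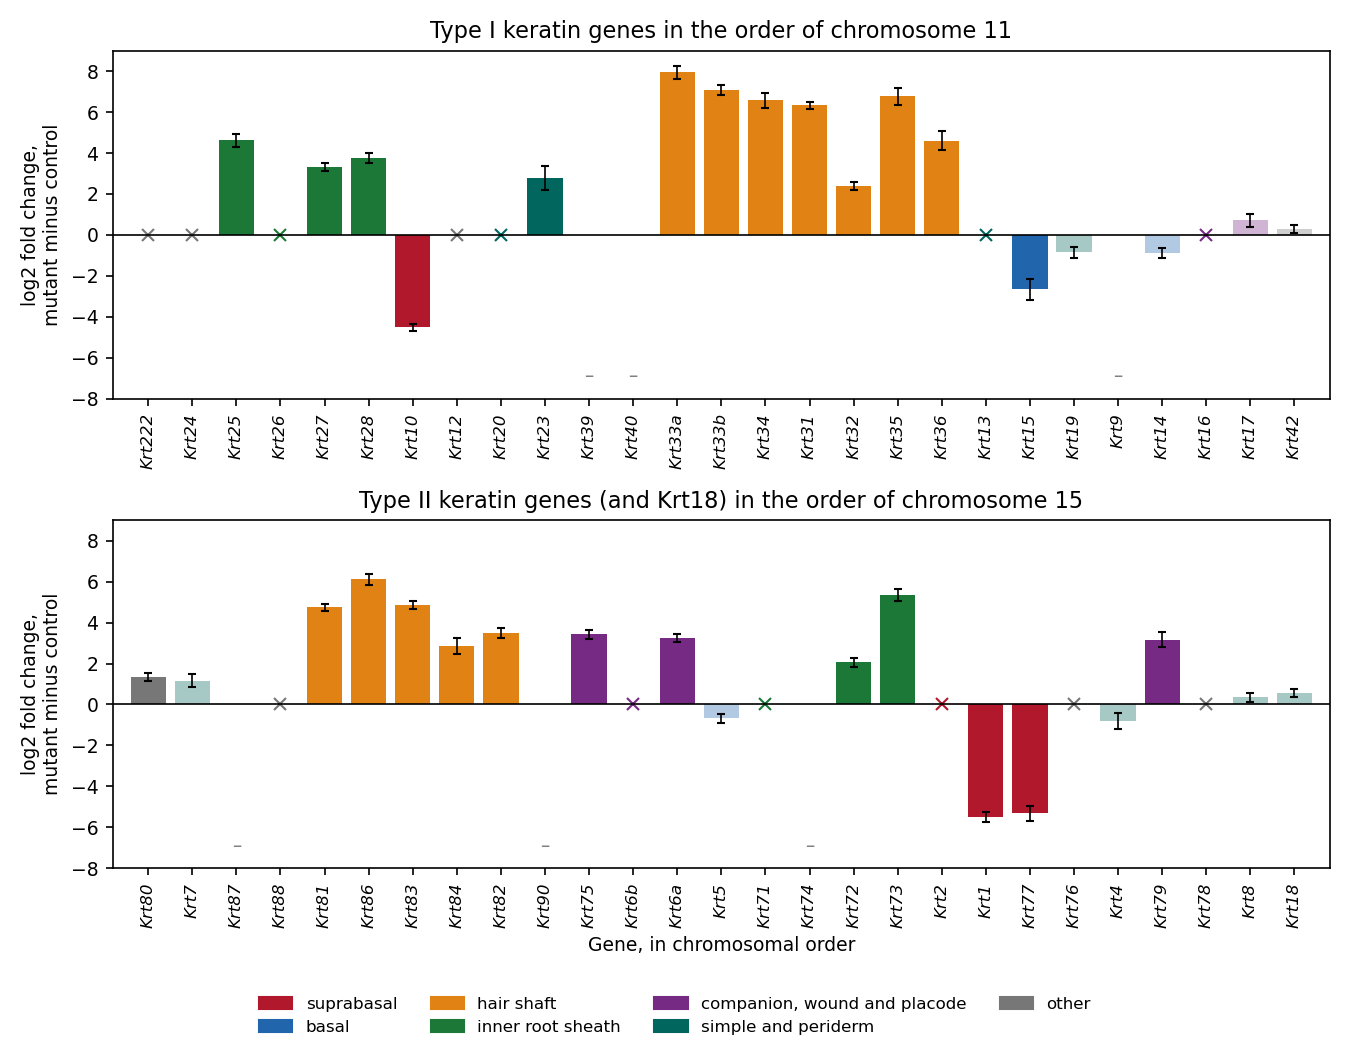
Log2 fold change (mutant minus control, bars with the SE of the limma fit) of the keratin genes in chromosomal order, coloured by class. Pale bars were not called, crosses mark genes too dim to be tested and dashes genes not measured here; Krt10 (-4.52) stands beside Krt28, and Krt1 (-5.50) and Krt77 (-5.32) lie near Krt73 (5.36).

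Across the other keratin genes, 44 were measured and 32 tested, of which 22 were called higher, 1 lower and 9 not. Higher calls make up 4.1% of all tested probe sets. The 1 called lower was Krt15, a basal keratin, with 166 and 547 in mutants, against 1510 and 2554 in controls (log2 fold change -2.67, SE 0.51, limma adjusted p = 0.0299; 0.0757 without control replicate 2). All 12 hair shaft keratins that were tested were called higher, among them Krt33a, Krt33b, Krt35 and Krt34, and so were the 5 tested of the 7 measured inner root sheath keratins. Of 4 tested keratins grouped here under the companion layer, wounds and placodes, Krt75, Krt6a and Krt79 were called higher. Krt17 was not (log2 fold change 0.71, limma adjusted p = 0.253). The group name need not fit each of these genes, Krt79 in particular. Krt6a, a keratin of the companion layer that also marks injured epidermis, had a mean of 366 ± 86.6 in mutants and 31.4 ± 6.75 in controls (SD, n = 2 each). Krt16, another keratin of injured epidermis, read 30.5 and 22.8 in mutants, against 0.695 and 22.2 in controls, and was not tested. Of 6 tested keratins of simple epithelium and periderm, the cell layer that covers embryonic epidermis, 1 was called higher, Krt23 (log2 fold change 2.79, limma adjusted p = 0.0377; 0.0653 without mutant replicate 2). Krt80, of mixed epithelia, was called higher too (log2 fold change 1.36, limma adjusted p = 0.0110). Most of these genes were dim in controls and passed the filter through their mutant signals, so the filter favours higher calls here.

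The RefSeq promoter table held 3 of the 4 members, Krt10, Krt77 and Krt2, and not Krt1. The 250 bases before each gene's start are shown because Krt10 and Krt77 moved together although they lie on different chromosomes, and because Krt2, next to Krt1, was under the offset on every array. Capitals mark matches to 4 motifs searched on both strands: the TATA-box form TATATA (its own reverse complement), the core sequence ATCAAAG that the TCF/LEF partners of beta-catenin recognise, the AP-1 motif TGANTCA, and the motif CCACCC known from KLF and Sp factors. All 3 are on the minus strand of GRCm38.p6, at chr11:99389365-99389614, chr15:101869706-101869955 and chr15:101818170-101818419.
Krt10: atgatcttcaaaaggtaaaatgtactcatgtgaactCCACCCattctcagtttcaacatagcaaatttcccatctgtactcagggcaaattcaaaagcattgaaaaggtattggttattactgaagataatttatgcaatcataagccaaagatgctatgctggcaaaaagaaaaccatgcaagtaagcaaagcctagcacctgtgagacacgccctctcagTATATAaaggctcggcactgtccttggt
Krt77: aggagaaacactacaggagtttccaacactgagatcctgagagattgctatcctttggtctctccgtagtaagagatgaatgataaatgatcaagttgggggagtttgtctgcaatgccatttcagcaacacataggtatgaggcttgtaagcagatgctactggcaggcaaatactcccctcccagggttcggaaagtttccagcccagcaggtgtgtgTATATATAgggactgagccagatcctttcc
Krt2: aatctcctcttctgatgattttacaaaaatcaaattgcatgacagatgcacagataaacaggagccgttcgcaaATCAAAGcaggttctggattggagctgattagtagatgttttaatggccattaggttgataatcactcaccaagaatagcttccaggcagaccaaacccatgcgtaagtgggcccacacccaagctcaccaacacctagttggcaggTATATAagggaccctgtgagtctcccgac
TATATA began 28 bases before the start in Krt10, 30 in Krt77, with a second, overlapping match at 28, and 29 in Krt2. It occurs in 5.25% of the 32851 windows of the same length in the table. ATCAAAG was found in Krt2 alone of the 3, beginning 176 bases before the start, and occurs in 3.21% of all windows. CCACCC was found in Krt10, 214 bases before the start, and occurs in 28.1% of windows. TGANTCA, present in 6.75% of windows, was in none of the 3. A match is a run of letters and was not tested as a binding site.

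Differentiation genes other than keratins fell in part. On the log2 scale with its offset the lowest of them was Gsta2 at -4.42, but in linear signal Gsta2, at 2.01% of its control mean, Serpinb12, at 2.67%, and Them5, at 3.44%, lay under the 4.20% of Krt10. Of 35 measured genes of the cornified envelope, lipid barrier and spinous layer, 23 were tested, 10 were called lower, 2 higher and 11 neither. Over all tested probe sets 2.93% were called lower and 4.1% higher. The median log2 fold change of these 23 genes was -0.72, against -0.01 for all tested probe sets, and 0.26 on the poly-A spike scale. It was -1.79 without control replicate 1, -0.40 without control replicate 2 and -1.60 without mutant replicate 2. The filter moved it too, to -0.28 with no filter and -2.33 with a filter at the 75th percentile. The list was written with results of these data known, and 4 of its genes, Gsta2, Them5, Serpinb12 and Capns2, had been named there among the largest falls; without them 6 of 19 were called lower and the median was -0.32.

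Krtdap and Dmkn, secreted proteins of the first suprabasal cells, were called with small errors and were chosen after their values were seen. Krtdap read 406 and 575 in mutants, against 2901 and 3783 in controls (log2 fold change -2.76, SE 0.20, limma adjusted p = 0.000904). Dmkn read 372 and 583 in mutants, against 3064 and 4186 in controls (log2 fold change -2.92, SE 0.23, limma adjusted p = 0.00137). Them5, a mitochondrial thioesterase, read 16.1 and 31.1 in mutants, against 442 and 930 in controls (log2 fold change -4.42, limma adjusted p = 0.00168). Capns2, a small calpain subunit, had a mean of 74.3 ± 24.1 in mutants and 682 ± 194 in controls (SD, n = 2 each). Lor (loricrin), the main cornified envelope protein, read 38.7 and 40.6 in mutants, against 173 and 657 in controls, with controls far apart (log2 fold change -2.87, SE 0.53, limma adjusted p = 0.0271, up to 0.107 under other settings), and was also chosen after its values were seen.

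The late markers Ivl and Flg, the precursors involucrin and filaggrin, were dim in both groups, Ivl with 1.38 and 12.4 in mutants against 9.55 and 18.8 in controls and Flg with 0.393 and 2.94 in mutants against 3.17 and 4.01 in controls. Hrnr, of the same list and picked after its values were seen, read 0.441 and 0.332 in mutants, against 25.5 and 86.3 in controls. Both mutants were under the offset, so it was at least 7.25-fold lower, and its mean was under the filter. The 2 genes called higher, chosen after their values were seen, were Calml3, a calmodulin-like protein, with 235 and 285 in mutants against 32.3 and 90.6 in controls (log2 fold change 2.09, limma adjusted p = 0.0276), and Cst6, a cystatin that inhibits proteases, with 62.7 and 59.8 in mutants against 6.12 and 23.9 in controls (log2 fold change 1.72, limma adjusted p = 0.0499). Both lost their call in some settings, Calml3 with an adjusted p up to 0.0675 and Cst6 up to 0.114.

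Among 21 tested regulators of stratification 5 were called lower, 1 higher and 15 neither, with a median of -0.52 that became 0.61 on the poly-A spike scale. The shares over all tested probe sets were 2.93% lower and 4.1% higher. Gata3, a transcription factor of suprabasal cells and of the inner root sheath, read 28.7 and 22.3 in mutants, against 163 and 228 in controls (log2 fold change -2.60, SE 0.22, limma adjusted p = 0.00168). The mutant mean of Gata3, 25.5, was under the filter, so it passed only through its control signals. Grhl3, a transcription factor needed for barrier formation, read 50.0 and 82.7 in mutants, against 219 and 362 in controls (log2 fold change -2.0, SE 0.30, limma adjusted p = 0.0123). Zfp750, which acts in terminal differentiation, Jag2, a Notch ligand, and Tfap2a, a gene picked after its values were seen, changed by -1.07, -0.83 and -0.79, whose signs turned on the poly-A spike scale. Each of these 3 lost its call when mutant replicate 1 was left out, Jag2 also without mutant replicate 2 and Tfap2a without control replicate 2, and Maf, higher by 0.64 on the log2 scale and likewise chosen after its values were seen, lost its call without mutant replicate 1. Trp63, the master regulator of stratified epithelia, read 432 and 603 in mutants, against 712 and 962 in controls, and did not pass (log2 fold change -0.69, limma adjusted p = 0.100). Klf4, a barrier transcription factor, had a log2 fold change of 0.15 (95% interval -0.14 to 0.43, limma adjusted p = 0.521). The number called lower was 2 without mutant replicate 1 and 9 without control replicate 1.

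Desmosome genes, whose proteins anchor keratin filaments at cell junctions, had a median log2 fold change of -0.81 over 13 tested, with 5 called lower and 0 higher. All tested probe sets had 2.93% called lower and 4.1% higher. On the poly-A spike scale the desmosome median was 0.28, with 0 called lower. Dsc1, a desmosomal cadherin of suprabasal cells, read 156 and 212 in mutants, against 406 and 733 in controls (log2 fold change -1.55, SE 0.28, limma adjusted p = 0.0251). Ppl (periplakin) and Evpl (envoplakin), which link keratins to the cornified envelope, had log2 fold changes of -1.53 and -1.14, Perp of -1.07 and Pkp1, chosen after its values were seen, of -1.04, the signs of Perp and Pkp1 turning on the poly-A spike scale. Evpl lost its call without control replicate 2 or mutant replicate 1, and Pkp1 without either mutant. Dsp (desmoplakin), found in desmosomes of all layers, had a log2 fold change of -0.34 that did not pass (limma adjusted p = 0.182). The number called lower was 3 without mutant replicate 1 and 10 without control replicate 1.

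Basal epidermis genes had a median log2 fold change of -0.67 over 13 tested, with 6 called lower and 0 higher, and a median of 0.48 on the poly-A spike scale. Lower calls make up 2.93% of all tested probe sets and higher calls 4.1%. Besides Krt15, Col7a1 (log2 fold change -1.97, limma adjusted p = 0.00373) and Col17a1 (log2 fold change -1.62, limma adjusted p = 0.00730), collagens that anchor basal cells, were lower. Col17a1 lost its call on the poly-A spike scale (limma adjusted p = 0.111). Itga3 had a log2 fold change of -1.09, Bcam of -0.72 and Dst of -0.64, Bcam and Dst being chosen after seeing their values and turning to 0.41 and 0.48 on the poly-A spike scale, and each lost its call in 3 of the 4 fits that left out 1 array. Without control replicate 2 the number called lower was 2.

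**Figure D4:**
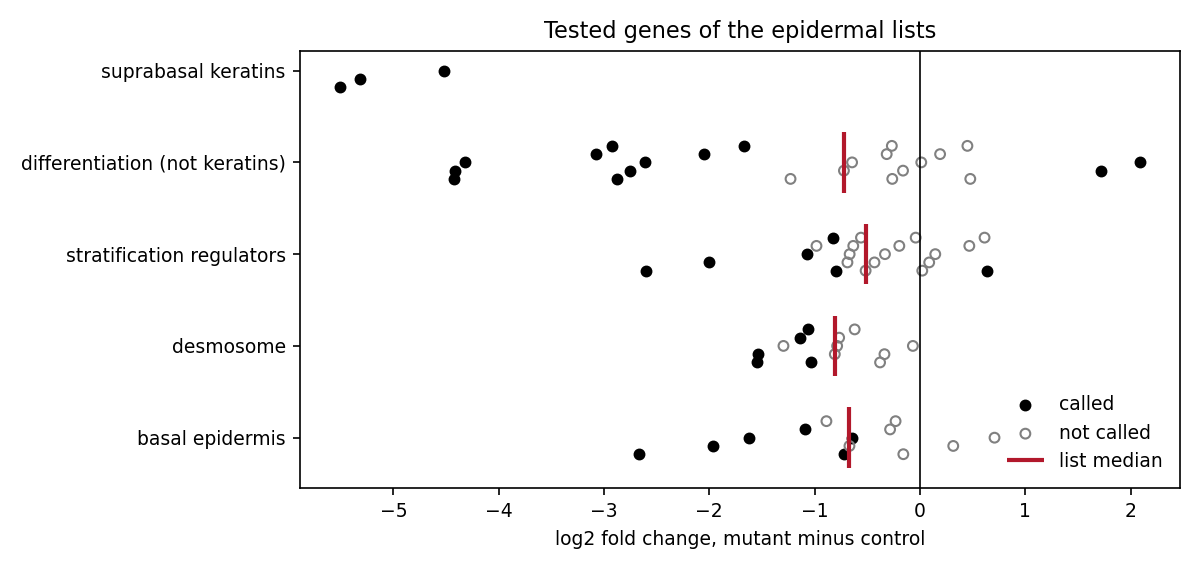
Log2 fold change (mutant minus control) of each tested gene in the suprabasal keratins and in the 4 epidermal gene lists, filled where called and open where not, with the median of each list but the keratins as a vertical line. The keratins lie at -5.50, -5.32 and -4.52, and the list medians between -0.81 and -0.52.

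Genes with the array profile closest to that of the 3 tested keratins were sought among 11549 genes, by the Euclidean distance over the 4 arrays between log2 profiles centred on each gene's mean. The keratins themselves lay 0.35 (Krt77), 0.42 (Krt1) and 0.64 (Krt10) from their own mean profile, distances that are small by construction because each gene enters that mean. The 8 nearest were Gsta2, a glutathione transferase (0.70), Them5 (0.77), Serpinb12, an intracellular serpin of epithelia (0.82), Sdr16c6, a short-chain dehydrogenase (0.85), Cpxm2, a carboxypeptidase-like protein (1.37), the homeobox gene Irx2 (1.56), Rspo1, a secreted Wnt agonist (1.80), and Sdr16c5, a retinol dehydrogenase (1.81). Pearson's r with the keratin profile lay between 0.975 for Rspo1 and 0.999 for Gsta2, over 4 arrays in 2 groups, so that any gene with a large fall scores high. All of the 8 but Irx2 had mutant means under the filter and passed it only through their control signals. Gsta2 read 2.34 and 8.92 in mutants, against 205 and 354 in controls. Serpinb12 read 3.76 and 12.6 in mutants, against 225 and 388 in controls. In controls replicate 2 was the higher array for all of the 8, as for the keratins. Them5 had this order in mutants too, with 16.1 and 31.1. Sdr16c6 read 1.02 and 12.2 in mutants, and Sdr16c5 1.21 and 8.43. For Gsta2, Serpinb12, Sdr16c6 and Sdr16c5 mutant replicate 1 was thus under the offset and mutant replicate 2 not far above it. The order of their mutants is therefore not read as a likeness to the keratins. Cpxm2, Irx2 and Rspo1 were lower in mutant replicate 2 than in mutant replicate 1, Rspo1 there being close to the offset. Rspo1 read 17.6 and 8.17 in mutants, against 233 and 238 in controls. In the authors' deposited table, whose GCRMA-based folds are on another scale than these signals, Irx2 has a fold of 0.0213 and Rspo1 one of 0.0205.

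**Figure D5:**
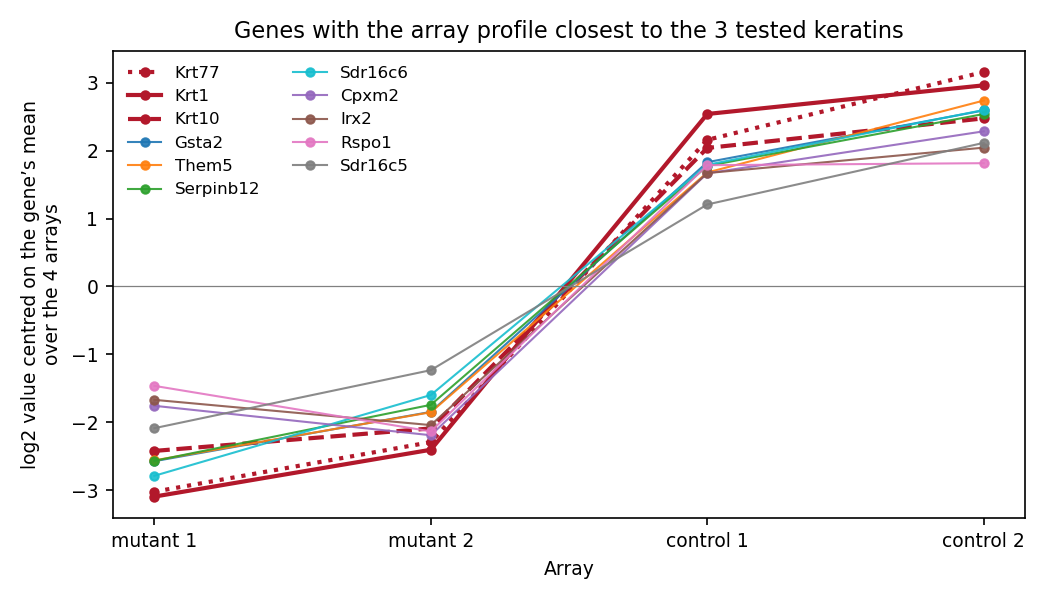
Log2 values of Krt1, Krt10, Krt77 (thick lines) and the 8 genes with the nearest profile, each centred on its own mean over the 4 arrays; the lines only connect the points of 1 gene. All 11 genes lie below zero in both mutants and above it in both controls.

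Markers of other cells in the skin were read on the same arrays. Summed over 7 measured dermal genes the signal was 30110 and 26170 in mutants, against 36717 and 32054 in controls, and 1 of the 7, Twist2, was called lower. Cartilage genes stood out in 1 array, with a sum over 8 genes of 10630 in mutant replicate 1 and 809 in mutant replicate 2, against 385 and 213 in controls, and 1 of the 8, Col11a1, was called higher. Without mutant replicate 1 the log2 fold changes were -5.16 for Krt1, -4.35 for Krt10 and -4.96 for Krt77. Muscle genes (6) summed to 3597 and 1804 in mutants, against 6522 and 5138 in controls, endothelial genes (4) to 1578 and 1632 against 1209 and 1257 in controls, and melanocyte genes (4) to 916 and 1431 against 493 and 512 in controls. Macrophage genes (4) summed to 2567 and 2950 in mutants, against 1920 and 1345 in controls, nerve and Schwann cell genes (2) to 210 and 279 against 113 and 104 in controls, and erythroid genes (3) to 8459 and 7182 against 7889 and 7128 in controls. Of these genes Myh3 and Des of muscle were called lower, and Tek, Dct, Pmel, Tubb3, Adgre1 and Lyz2 higher; on the poly-A spike scale Des turned to 0.24, and Des, Adgre1, Lyz2 and Col11a1 each lost the call when single arrays were left out. The nerve and Schwann cell genes, Tubb3 and Sox10, went opposite ways, so their sum follows Tubb3. Tubb3 read 162 and 231 in mutants, against 25.8 and 20.7 in controls. Sox10 read 47.9 and 48.0 in mutants, against 87.6 and 83.4 in controls, and was not called (log2 fold change -0.74, limma adjusted p = 0.0546). No marker was at 0. The part of tissue composition in the keratin falls was not tested.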

How the data were processed

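RNA of 4 skin samples was measured on Affymetrix mouse expression arrays. The deposited intensity values came from the authors' GCOS and MAS5 software, per the submitters' processing notes; tool versions and the scaling target are not given in the sources used here. A second deposited table, per its file header, holds GCRMA-based fold values of selected probe sets with Welch p-values; its ratio (fold) column was used as given, and 4 per-sample columns of it were not used.

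Signals were used as log2(signal + 7.71), the offset being the 25th percentile of all values. Probe sets with a mean signal of at least 31.1, the median of the probe set means, were tested, 22519 of 45037, besides 64 array controls left out. Mutants were compared with controls in limma 3.58.1 (R 4.3.3, lmFit and eBayes with a variance trend), with p-values adjusted by Benjamini-Hochberg across the tested probe sets. The procedure was also run on simulated data in which probe sets of similar level shared the same spread. That run cannot show how the procedure does where such probe sets differ in spread. Of several probe sets of a gene, that with the largest mean represents it. Annotation named 1 gene for 34945 probe sets, several for 932 and none for 9160. Fewer than 3 arrays per group limit the precision.

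The members and gene lists were chosen with earlier results of these data known. Named are all members, up to 4 called genes per list with the largest change, Ctnnb1, Krt14, and the 8 genes of nearest profile; neighbours were named by gene order, and any other gene was chosen after its values were seen. Alternatives were other offsets, filters, scalings and variance models, a replicate block, arrays left out, and, chosen after seeing the data, the authors' Welch test and a trimmed list.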

Additional observations from a re-analysis of the deposited data

How the results depend on the processing

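The 3 tested suprabasal keratins kept their direction and their call under 16 other settings, with log2 fold changes of -5.85 to -4.44 for Krt1, -4.74 to -3.38 for Krt10 and -5.82 to -4.31 for Krt77, and with adjusted p-values of at most 0.00170, 0.00124 and 0.00456. Averaging the probe sets of a gene was not run for them, since each has 1. Under the methods' t-test, which has no correction and was added after seeing the data, 1 of the 3 passed, Krt1 (-5.50, p = 0.0108) and Krt77 (-5.32, p = 0.0173) being past 0.01 without exact enumeration; over all tested probe sets 175 higher and 121 lower passed, 0 after Benjamini-Hochberg adjustment, and it called 0 genes lower in each of the 4 epidermal lists.

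With each array left out in turn, the counts ran from 538 to 1359 higher and from 399 to 841 lower over all tested probe sets, and from 10 to 14 differentiation genes, 2 to 9 stratification regulators, 3 to 10 desmosome genes and 2 to 7 basal genes lower. The members' difference to the mean of Krt5 and Krt14 then ran from -4.80 to -4.65 for Krt1, -3.84 to -3.64 for Krt10 and -4.78 to -4.30 for Krt77; against Krt14 alone it was -4.62 for Krt1 and -3.63 for Krt10, and against Krt5 alone -4.83 and -3.85. With no filter 557 probe sets were called higher and 323 lower, with 2 stratification, 0 desmosome and 2 basal genes lower, more probe sets being tested. With a filter at the 75th percentile the counts were 469 and 359, with 3 stratification regulators lower. Without a variance trend 1 desmosome gene and 2 basal genes were called lower. Leaving 4 differentiation genes out left 6 lower.

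Scaling to the poly-A spikes turned the medians of the differentiation genes to 0.26, the stratification regulators to 0.61, the desmosome genes to 0.28 and the basal genes to 0.48. It gave 20294 probe sets higher and 132 lower, with 2 stratification, 0 desmosome and 2 basal genes lower; the cause was not tested. The labels number the samples 1 and 2 in each group but do not say that a number pairs them. The deviations from the group means of samples with the same number correlated at 0.155 over 22519 probe sets. With 2 arrays per group both pairs give this same value, so it cannot decide whether the samples are paired. With the replicate block 1065 probe sets were called lower, with 8 stratification and 11 desmosome genes, and the keratin calls were the same. The array number limits all of these counts, and signals under the offset have no order.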
